A study of Mus musculus with 4 samples.

Results

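A set of 10 genes of collagen modification and cross-linking were examined in MC38 cells: the prolyl 4-hydroxylase subunits P4ha1, P4ha2, P4ha3 and P4hb, the lysyl hydroxylases Plod1, Plod2 and Plod3, and the lysyl oxidases Lox, Loxl2 and Loxl3. They were taken by name, as the 10 of 27179 genes in the count table whose NCBI gene identifiers carry these mouse symbols. Of these, 9 had enough counts to be among the 13580 genes tested, and Lox did not. Hypoxia raised 6 of the 9, against 8.21% of all tested genes. P4ha2 (2.56-fold), Plod2 (1.89-fold) and P4ha1 (1.74-fold) led by fitted change, followed by Loxl2, P4hb and Plod3. By the same test none of the 9 was called with IFN-γ, where 4.76% of all tested genes rose and 1.1% fell. With shares this small, that does not set the 9 apart from other genes.

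Collagen chains are modified in the endoplasmic reticulum before they leave the cell. Prolyl 4-hydroxylases, made of catalytic α subunits and the shared β subunit P4hb, hydroxylate prolines and so stabilize the triple helix, and lysyl hydroxylases hydroxylate lysines that later carry sugars or form cross-links. Both need oxygen, iron and 2-oxoglutarate, as do the oxygen-sensing hydroxylases that control hypoxia-inducible factors. Lysyl oxidases are copper enzymes that act outside the cell, where they oxidize lysine side chains of collagen and elastin so that fibres become cross-linked. Several genes of both kinds are known hypoxia-induced genes in tumours, and stiff, cross-linked collagen is a feature of many solid tumours.

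MC38 is a mouse colon cancer line, here without genetic change (WT). Cells were kept untreated or with IFN-γ, a T cell cytokine, under normoxia (20% oxygen) or hypoxia (1.5% oxygen), and 1 poly-A RNA library was sequenced for each of the 4 conditions. The study used 5 ng/mL IFN-γ for 24 h in most of its experiments, and the time spent in hypoxia by the sequenced cells was not given in the sources used here. With 1 library per condition there were no replicates, so the spread behind each p-value was the departure from additivity of the oxygen and IFN-γ effects, with 1 residual degree of freedom per gene shared across genes, in which differences between cultures and true interaction cannot be told apart.

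The 4 libraries held between 34302971 and 34537939 counts assigned to genes, with scaling factors from 0.993 to 1.01. Among 20 reference genes of hypoxia 18 rose in the hypoxic libraries and 1, Pfkfb3, fell (by 0.24, edgeR adjusted p = 0.0136), with a median log2 change of 1.17, and all 12 reference genes of IFN-γ rose in the treated libraries (median 2.26). The cell type label was checked on markers, and those of colon epithelium were nearly absent, so they did not bear out an epithelial profile. The summed counts of 12 colon epithelial markers ran from 117 to 136 per library, with Cdh1, Cdx1, Cdx2 and Cldn7 at 0 in all libraries and Epcam and Krt18 at no more than 2 counts. The other 6 were low but counted in some library, the highest being Krt8 at 90, 56, 56 and 48. The sums of 12 fibroblast and mesenchymal markers ran from 85525 to 95822, mostly Vim, and those of 9 leukocyte and endothelial markers from 221 to 290. Since these are bulk samples, fewer cells that express a gene and less RNA per cell cannot be told apart.

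The promoters are shown for the prolyl 4-hydroxylase genes and Plod1, because they cover strongly raised genes, a modestly raised one and 2 that were not called. Each is the RefSeq sequence of mouse build GRCm38.p6 from 250 bases before to 50 bases after the start site, 5′ to 3′ on the strand of the gene. For P4ha3 the start site of the entry lies 31 bases inside the annotated gene. Capitals mark the core letters ACGTG or GCGTG on either strand, the short words in which hypoxia-inducible factors are known to bind. P4ha1 (chr10:59323046-59323345, + strand; the start site of this entry lies 99 bases inside the annotated gene), P4ha2 (chr11:54100674-54100973, + strand), P4hb (chr11:120573204-120573503, - strand), P4ha3 (chr7:100285270-100285569, + strand) and Plod1 (chr4:147936727-147937026, - strand) read as follows.
P4ha1: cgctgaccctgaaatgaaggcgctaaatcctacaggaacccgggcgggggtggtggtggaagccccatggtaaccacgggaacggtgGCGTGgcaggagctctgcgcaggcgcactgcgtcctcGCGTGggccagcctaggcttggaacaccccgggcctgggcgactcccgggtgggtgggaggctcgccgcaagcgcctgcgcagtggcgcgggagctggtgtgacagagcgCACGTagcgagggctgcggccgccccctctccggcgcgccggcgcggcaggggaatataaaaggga
P4ha2: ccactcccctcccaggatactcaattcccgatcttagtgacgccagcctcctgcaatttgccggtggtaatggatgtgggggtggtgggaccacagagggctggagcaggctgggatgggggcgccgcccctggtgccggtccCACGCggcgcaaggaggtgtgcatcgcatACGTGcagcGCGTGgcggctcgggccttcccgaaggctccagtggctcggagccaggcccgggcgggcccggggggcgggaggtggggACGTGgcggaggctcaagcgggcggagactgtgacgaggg
P4hb: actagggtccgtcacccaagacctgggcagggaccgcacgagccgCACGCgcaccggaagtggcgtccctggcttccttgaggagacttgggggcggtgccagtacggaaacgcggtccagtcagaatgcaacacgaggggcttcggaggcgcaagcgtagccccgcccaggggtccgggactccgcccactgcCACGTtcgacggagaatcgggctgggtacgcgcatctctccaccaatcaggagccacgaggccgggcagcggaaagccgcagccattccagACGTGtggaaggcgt
P4ha3: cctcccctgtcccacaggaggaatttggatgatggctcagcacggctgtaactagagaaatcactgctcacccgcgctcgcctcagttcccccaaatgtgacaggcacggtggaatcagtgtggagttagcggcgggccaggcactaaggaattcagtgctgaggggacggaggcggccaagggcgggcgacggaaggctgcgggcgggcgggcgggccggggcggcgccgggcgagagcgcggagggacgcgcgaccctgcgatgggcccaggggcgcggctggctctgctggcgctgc
Plod1: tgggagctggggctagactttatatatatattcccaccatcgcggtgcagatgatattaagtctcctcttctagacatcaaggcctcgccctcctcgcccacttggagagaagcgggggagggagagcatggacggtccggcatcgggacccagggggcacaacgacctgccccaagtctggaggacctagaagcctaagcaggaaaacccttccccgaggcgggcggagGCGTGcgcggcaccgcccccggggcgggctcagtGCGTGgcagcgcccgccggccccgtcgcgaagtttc

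The P4ha2 window held 4 of these words, 2 ACGTG and 2 GCGTG, and the P4ha1 and P4hb windows held 3 each. Plod1 held 2, both GCGTG, and P4ha3 held 0. Plod3, the other member with a promoter in the table, held 4, so 5 of the 6 members found there held at least 1 word. Of all 32851 promoters of this length 43.8% held at least 1 of either word, 19.6% held ACGTG and 32.4% held GCGTG. The letters TTCNNNGAA, a palindrome known as the binding word of STAT factors, were in none of these 6 windows and in 8.30% of all promoters. Such matches describe the letters only. Plod1, which held 2 words, was not called with hypoxia, while P4hb with 3 rose by less than P4ha2 or P4ha1. Plod3, with as many words as P4ha2, had a fitted log2 change of 0.16 with hypoxia.

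For each member the counts are given in the order control normoxia, control hypoxia, IFN-γ normoxia and IFN-γ hypoxia. Fitted changes are log2 changes from an additive model with their standard error (SE), tested in edgeR by the quasi-likelihood test, and p-values were adjusted by Benjamini-Hochberg over all 13580 genes. Changes within a pair of libraries are log2 ratios of CPM, the counts scaled to a common library total, with 95% intervals that cover counting error only. By the test, 6 of 9 members rose with hypoxia, against 8.21% of all tested genes, and 0 fell, against 6.83%. The median fitted change of the 9 was 0.28, beside 0.0047 over all tested genes. By a rule with no p-value, at least 1.5-fold in the same direction in both pairs of libraries, 3 members rose (2.56% of all tested genes did) and 0 fell (0.729%).

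**Figure D1:**
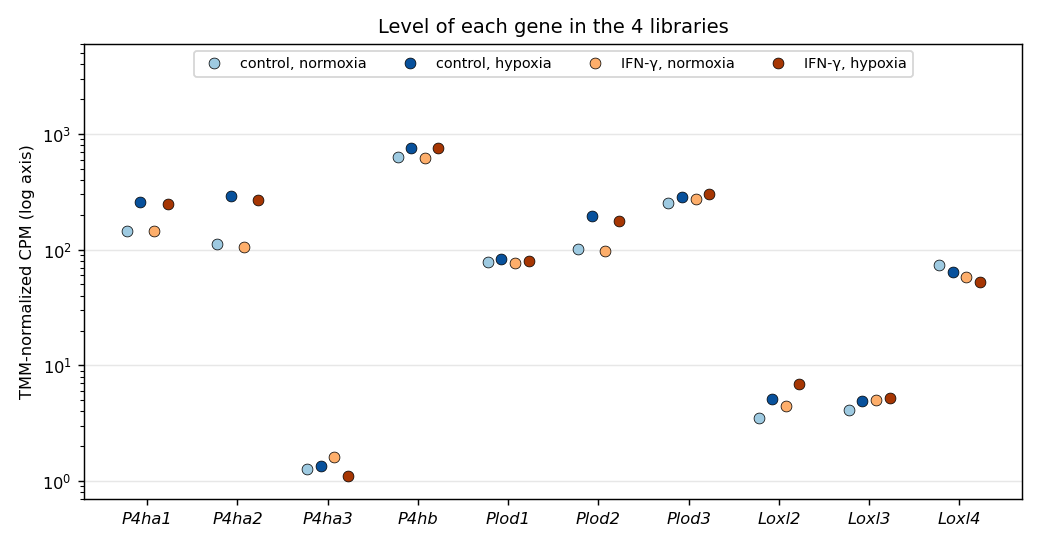
Level of 9 members and of Loxl4 in each of the 4 libraries, in TMM-normalized CPM on a log axis; each point is 1 library and Lox, with 0 to 2 counts, is not drawn. Both hypoxic points of P4ha1, P4ha2 and Plod2 sit above both normoxic points, while the points of P4ha3 and Plod1 lie close together.

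P4ha2, the gene of an α subunit of prolyl 4-hydroxylase (chr11:54100924-54131668, + strand, GRCm38.p6), changed the most. Its counts were 3882, 10005, 3638 and 9207. Both hypoxic libraries were far above both normoxic ones, with or without IFN-γ. Hypoxia raised it by a fitted log2 change of 1.35 (SE 0.0576, edgeR adjusted p = 1.45e-116). The change was 1.37 (1.31 to 1.42) without IFN-γ and 1.34 (1.29 to 1.40) with it, or 2.58-fold and 2.53-fold. By the size of its hypoxia change it stood at place 19 among the 11489 tested genes that averaged 50 counts or more.

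P4ha1, the other widely expressed α subunit gene (chr10:59323197-59373304, + strand), had counts of 5065, 8915, 4943 and 8520. The same 2 libraries were high, and the groups of normoxic and hypoxic libraries did not overlap. The fitted hypoxia change was 0.80 (SE 0.0566, edgeR adjusted p = 7.67e-43). It was 0.82 (0.77 to 0.87) without IFN-γ and 0.79 (0.74 to 0.84) with it, a smaller change than that of P4ha2 in both pairs, with intervals that did not overlap.

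P4ha3, the third α subunit gene (chr7:100285489-100319701, + strand), was barely counted, at 44, 47, 55 and 38. Its hypoxic and normoxic libraries overlapped. The fitted hypoxia change was -0.22 (SE 0.327, edgeR adjusted p = 0.734), and the intervals of both pairs included 0. The interval without IFN-γ ran from -0.53 to 0.72, so at this depth even sizeable changes could not be told from none.

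P4hb encodes the β subunit, also known as protein disulfide isomerase, which keeps the α subunits soluble and in the endoplasmic reticulum (chr11:120560298-120573253, - strand). Its counts of 21902, 26228, 21258 and 25941 made it the most highly expressed member, also per length. Hypoxia raised it by 0.28 (SE 0.0484, edgeR adjusted p = 5.63e-07). The pair changes were 0.26 (0.24 to 0.29) and 0.29 (0.26 to 0.31), or 1.20-fold and 1.22-fold, so both hypoxic libraries were above both normoxic ones by a much smaller step than for P4ha1 or P4ha2.

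To compare genes, CPM per kilobase of exon was used, which divides by the annotated exon bases of each gene. On this scale the α subunit sum was 53.9 in control normoxia, 110 in control hypoxia, 52.6 in IFN-γ normoxia and 104 in IFN-γ hypoxia. P4ha1 was the main α subunit in all 4 libraries on this scale, with 4114 exon bases against 6239 for P4ha2. By counts alone P4ha2 was the higher in both hypoxic libraries (10005 against 8915 and 9207 against 8520), so this order and the shares depend on the lengths used. The share of P4ha2 in this sum was 33.3% and 32.4% in the normoxic libraries and 42.4% and 41.5% in the hypoxic ones, and P4ha3 never exceeded 0.973%. The level of P4hb was 221, 265, 217 and 265 on the same scale. Its ratio to the α subunit sum was therefore 4.10 and 4.12 in normoxia and 2.42 and 2.55 in hypoxia.

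**Figure D2:**
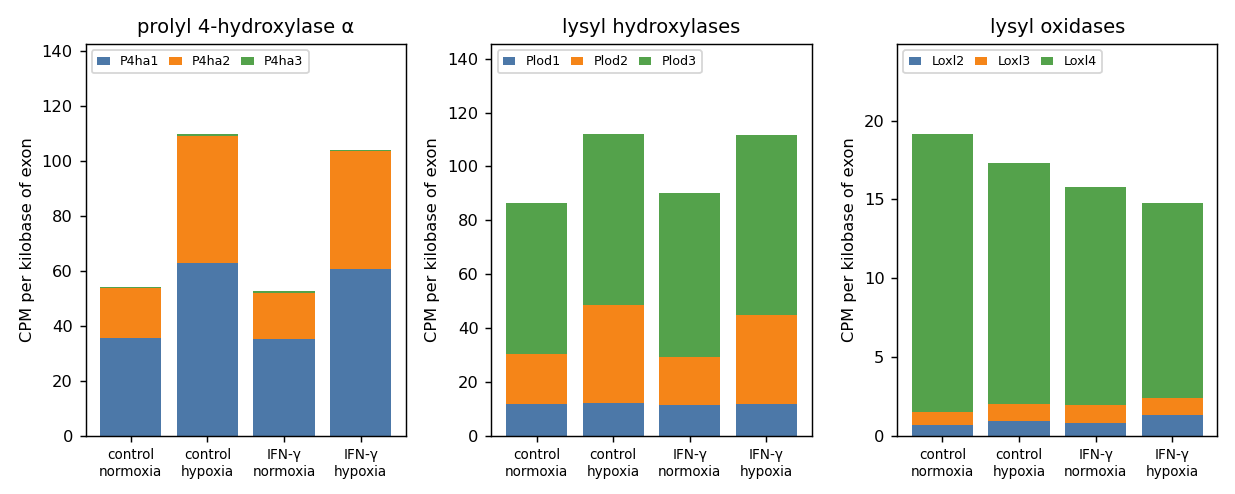
CPM per kilobase of exon (vertical axes, linear from 0) of the prolyl 4-hydroxylase α subunits, the lysyl hydroxylases and the lysyl oxidases in the 4 libraries; each stacked bar is 1 library and each colour 1 gene. The α subunit bars rise from 53.9 to 110 between control normoxia and control hypoxia, the orange Plod2 segment widens in both hypoxic libraries, and Loxl4 fills most of each lysyl oxidase bar.

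Among the lysyl hydroxylases, Plod2 responded most. Its product is known for hydroxylating lysines of the collagen telopeptides, from which stable cross-links form (chr9:92539636-92608428, + strand). The counts were 3499, 6774, 3319 and 6100. Hypoxic libraries were again above normoxic ones without overlap, with a fitted change of 0.92 (SE 0.0596, edgeR adjusted p = 1.49e-50). It was 0.96 (0.90 to 1.01) without IFN-γ and 0.88 (0.82 to 0.94) with it, or 1.94-fold and 1.84-fold.

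Plod1, the lysyl hydroxylase of the helical part of the collagen chain (chr4:147909753-147936776, - strand), had counts of 2732, 2842, 2628 and 2751. The 4 libraries differed little, and the fitted hypoxia change of 0.06 (SE 0.0658) did not pass the test (edgeR adjusted p = 0.596). The pair changes were 0.06 (-0.02 to 0.14) and 0.07 (-0.01 to 0.15). A change as large as that of Plod2 lay outside both intervals, which hold counting error only and no spread between cultures.

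Plod3, a lysyl hydroxylase that can also add sugars to hydroxylysine (chr5:136987019-136996646, + strand), had counts of 8761, 9898, 9405 and 10325. Both hypoxic libraries were above both normoxic ones, by a small step. The fitted hypoxia change was 0.16 (SE 0.0536, edgeR adjusted p = 0.0271), and this call was not stable: it was lost with DESeq2 (adjusted p = 0.175), without the filter on low counts (0.0676) and with IFN-γ left out of the model (0.294). On the opposite strand Znhit1 covered 11.7% of its exon bases, and whether the counting used strand was not given in the sources used here; Znhit1 had 1689 to 1886 counts and a hypoxia change of 0.11 (edgeR adjusted p = 0.340).

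Per kilobase of exon, Plod3 was the main lysyl hydroxylase in all 4 libraries, at 64.8%, 56.6%, 67.5% and 59.8% of the sum of the 3 genes. The share of Plod2 was 21.7% and 19.95% in the normoxic libraries and 32.5% and 29.6% in the hypoxic ones. The sum itself was 86.4, 112, 90.0 and 112 CPM per kilobase. Plod2 was 1.61 and 1.58 times the level of Plod1 in normoxia and 2.99 and 2.78 times in hypoxia.

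Lysyl oxidases were scarce among the members. Lox, the founding enzyme of the family, had 0, 0, 0 and 2 counts, all under the 3 counts taken as the detection limit (0.0869 to 0.0875 CPM), and was not tested. No direction can be read for it at this depth.

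Loxl2, a lysyl oxidase known for acting on collagen IV of basement membranes (chr14:69608692-69695834, + strand), had 122, 176, 154 and 238 counts. Within each IFN-γ state the hypoxic library was the higher, and the highest of the 4 was the one with both stimuli. The fitted hypoxia change was 0.58 (SE 0.169, edgeR adjusted p = 0.00678), with pair changes of 0.53 (0.19 to 0.88) and 0.63 (0.33 to 0.93). The call was lost with IFN-γ left out of the model (adjusted p = 0.281), and DESeq2 gave no adjusted p. These values are uncertain, because 46.2% of the 31-base words of its exons also occur in other genes. The gene that shares the most of these words is Gm21451, which itself had 0, 0, 0 and 1 counts.

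Loxl3, the lysyl oxidase with a known part in palate and spine development (chr6:83034205-83052566, + strand), had 141, 171, 173 and 179 counts. These lay close together, with a fitted hypoxia change of 0.16 (SE 0.171, edgeR adjusted p = 0.602) and intervals that included 0 in both pairs. Htra2 covered 11.6% of its exon bases on the opposite strand, with 2411 to 2909 counts and a fall by 0.24 with hypoxia (edgeR adjusted p = 0.00331).

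The family's other genes put these low levels in place. Loxl1 had 0 counts in all 4 libraries. Loxl4, a lysyl oxidase outside the chosen 10, had 2567, 2231, 2006 and 1787 counts and made up 92.0%, 88.4%, 87.8% and 83.6% of the family per kilobase of exon. Its fitted hypoxia change was -0.18 (SE 0.0696, edgeR adjusted p = 0.0548) and did not pass. Loxl2 made up 3.41%, 5.43%, 5.25% and 8.68% of the family and Loxl3 4.62%, 6.20%, 6.93% and 7.66%. The share of Loxl2 is uncertain, because its length included the sequence shared with other genes.

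Across all members, the order of levels per kilobase in control normoxia was P4hb (221), Plod3 (56.0), P4ha1 (35.6), Plod2 (18.7), P4ha2 (18.0), Plod1 (11.7), Loxl3 (0.885), Loxl2 (0.652), P4ha3 (0.405) and Lox (0). In control hypoxia Plod3 (63.4) and P4ha1 (62.7) stood side by side, followed by P4ha2 (46.4) and Plod2 (36.3). With 1 library per condition the neighbours in these orders could not be tested. The place of Loxl2 is also uncertain, because its length included sequence shared with other genes.

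IFN-γ left every member without a call. By edgeR's quasi-likelihood test 0 of 9 members rose, against 4.76% of all tested genes, and 0 fell, against 1.10%. With shares this small, 0 of 9 does not set the members apart from other genes. At an unadjusted edgeR p under 0.05 there was 1, Loxl2 (0.0170). The share of all tested genes under that threshold is not given here, so this count has no comparison. DESeq2 and the 6 other fits called 0 as well. The rule of at least 1.5-fold in both pairs also found 0 raised (3.09% of all tested genes) and 0 lowered (0.714%). The median fitted IFN-γ change of the members was -0.02, beside -0.01 over all tested genes.

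The fitted IFN-γ changes were -0.04 for P4ha1 (edgeR adjusted p = 0.900), -0.09 for P4ha2 (0.511), -0.02 for P4hb (0.960) and -0.10 for Plod2 (0.480). For the 3 genes most raised by hypoxia, IFN-γ libraries were slightly lower in both oxygen conditions. The pair changes of P4ha2 were -0.08 (-0.15 to -0.01) in normoxia and -0.11 (-0.15 to -0.07) in hypoxia, and those of Plod2 were -0.06 (-0.13 to 0.01) and -0.14 (-0.19 to -0.09). Plod3 went the other way, with a fitted change of 0.10 (edgeR adjusted p = 0.446) and pair changes of 0.12 (0.07 to 0.16) and 0.07 (0.03 to 0.11). These intervals hold no spread between cultures, and none of these changes passed the test.

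Loxl2 had the largest fitted IFN-γ change among the members, 0.40 (edgeR adjusted p = 0.188), with 0.35 (-0.0019 to 0.70) in normoxia and 0.45 (0.16 to 0.74) in hypoxia. P4ha3, Plod1 and Loxl3 had fitted changes of 0.03, -0.04 and 0.19, none called. Outside the members, Loxl4 fell by 0.32 with IFN-γ (SE 0.0696, edgeR adjusted p = 1.05e-04), by 0.34 in normoxia and by 0.31 in hypoxia. This call was kept in 6 of the 7 alternative fits and lost with oxygen left out of the model (adjusted p = 0.458), and its adjusted p was 0.0494 with DESeq2.

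**Figure D3:**
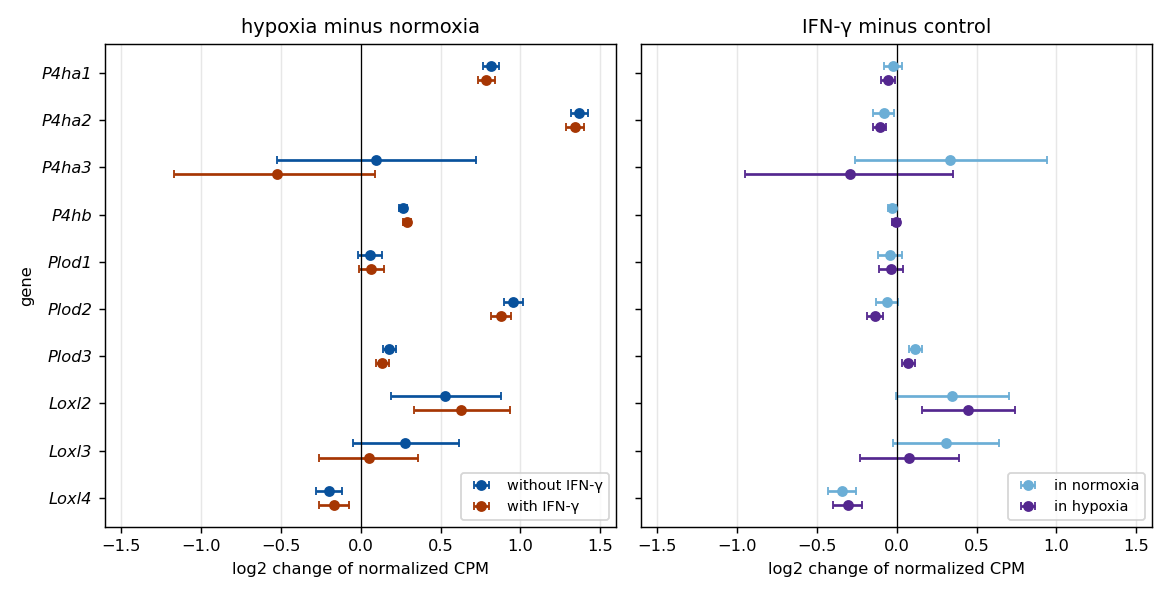
Log2 change of normalized CPM (horizontal axes) of each gene within each pair of libraries, hypoxia against normoxia on the left and IFN-γ against control on the right; points are single pairs and bars are 95% intervals of counting error only. P4ha1, P4ha2 and Plod2 lie between 0.79 and 1.37 on the left for both IFN-γ states, and near 0 on the right.

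The hypoxia change was then set side by side in the libraries with and without IFN-γ. With minus without IFN-γ, the difference in log2 change was -0.03 for P4ha1, -0.03 for P4ha2, 0.03 for P4hb, -0.08 for Plod2 and -0.04 for Plod3. It was 0.01 for Plod1, 0.10 for Loxl2, -0.23 for Loxl3 and -0.62 for P4ha3. All 9 counting intervals included 0, for P4ha2 from -0.10 to 0.05 and for P4ha3 from -1.46 to 0.21. Over 10443 well-counted genes, with 100 counts or more in each library, the central 95% of these differences ran from -0.36 to 0.40. With 1 library per condition the differences could not be tested.

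Genes whose profile over the 4 libraries was most like that of P4ha2 were sought among 10442 others with 100 counts or more in each library, by the Euclidean distance of centred log2 CPM. The nearest were Ak4, a mitochondrial adenylate kinase (distance 0.0299), Bnip3l, a mitophagy receptor (0.0628), Egln1, the main oxygen-sensing prolyl hydroxylase (0.0725), Espn, an actin-bundling protein (0.0864), and Pdk1, a kinase that restrains pyruvate dehydrogenase (0.0935). Ak4 had 3197, 8109, 3027 and 7491 counts, a fitted hypoxia change of 1.33 beside 1.35 for P4ha2.

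Some other enzymes that share the oxygen-dependent chemistry were read from a chosen list of 6, named for oxygen sensing. It does not cover the whole enzyme family, and the prolyl 3-hydroxylase genes were listed with other collagen-modifying genes. Of the 5 tested, 3 rose with hypoxia: Egln1 by 1.38 (SE 0.0578, edgeR adjusted p = 9.58e-120), Egln3 by 1.17 (adjusted p = 2.04e-51) and Asph, an aspartyl hydroxylase of the endoplasmic reticulum, by 0.28 (adjusted p = 9.88e-05). The call of Asph was lost with IFN-γ left out of the model (adjusted p = 0.122). Among all tested genes 8.21% rose and 6.83% fell with hypoxia. Egln1 had 3690, 9663, 3625 and 9329 counts, and so rose in both hypoxic libraries by about as much as P4ha2. Egln2 and Hif1an, which hydroxylate hypoxia-inducible factors too, had hypoxia changes of -0.08 and -0.03 and were not called. The median of the 5 was 0.28 with hypoxia, beside 0.28 for the members. None of the 5 was called with IFN-γ, where 4.76% of all tested genes rose and 1.1% fell.

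P4hb is one of many disulfide isomerases and chaperones of the endoplasmic reticulum, and 14 others were listed and tested. With hypoxia 2 rose, Ero1a and Hsp90b1, and 1 fell, Txndc5, where 8.21% of all tested genes rose and 6.83% fell. Ero1a, the oxidase that recharges disulfide isomerases, had 4791, 9887, 4643 and 9398 counts and a change of 1.03 (SE 0.0565, edgeR adjusted p = 4.28e-71). Hsp90b1, an abundant chaperone, rose by 0.21 (adjusted p = 2.50e-05), and Txndc5, an isomerase, fell by 0.17 (adjusted p = 0.0283). The calls of Txndc5 and Hsp90b1 were lost with IFN-γ left out of the model (adjusted p = 0.252 and 0.149), and that of Txndc5 also with DESeq2. Ero1a and Egln3 were also among the hypoxia reference genes. The median of the list was -0.0021 with hypoxia, and 0 were called with IFN-γ, where 4.76% of all tested genes rose and 1.1% fell.

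Of 13 other genes that modify or fold collagen, 12 were tested and 1 was called with hypoxia, where 8.21% of all tested genes rose and 6.83% fell. This was P3h3, a prolyl 3-hydroxylase family gene, which rose by 0.34 (SE 0.0953, edgeR adjusted p = 0.00481), a call lost with DESeq2 and with IFN-γ left out of the model (adjusted p = 0.285). The collagen chaperone Serpinh1 had 8932, 9149, 7943 and 8284 counts and the galactosyltransferase Colgalt1 had 9599, 9163, 9256 and 8429, and neither was called. The prolyl 3-hydroxylase complex genes P3h1, Crtap and Ppib had hypoxia changes of -0.05, -0.03 and -0.03. The list's median was -0.03 with hypoxia and -0.07 with IFN-γ. With IFN-γ 0 were called, where 4.76% of all tested genes rose and 1.1% fell.

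The substrates themselves, 44 collagen chain genes of which 28 were tested, included 4 raised by hypoxia and 0 lowered, with a median change of 0.07. Over all tested genes 8.21% rose and 6.83% fell. Col5a3 rose by 0.52 (SE 0.0769, edgeR adjusted p = 1.05e-09), Col16a1 by 0.26, Col5a1 by 0.25 and Col7a1 by 0.23, by fitted change all less than P4ha1, P4ha2 and Plod2. All 4 calls were lost with IFN-γ left out of the model, with adjusted p-values from 0.107 to 0.721. Col1a1, a chain of the main fibrillar collagen, had only 66, 33, 42 and 29 counts and was not called. The most counted of these 4 was Col5a1, at 7398, 8552, 7140 and 8727.

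With IFN-γ, 6 of the 28 collagen chains fell and 2 rose, where 1.1% of all tested genes fell and 4.76% rose. The median of the 28 chains was -0.19. Those that fell were Col6a1 (by 0.60, edgeR adjusted p = 8.67e-11), Col6a2, Col3a1, Col7a1, Col4a5 and Col16a1. Col5a3 rose by 1.54 (adjusted p = 1.10e-83), from 692 and 882 counts in the control libraries to 1792 and 2798 in the treated ones, and Col9a3 rose by 0.90 from 76 and 73 to 110 and 169. Of these 8 calls only those of Col5a3 and Col6a1 were kept in all 7 alternative fits, and those of Col16a1 and Col4a5 were kept in 2 and 1.

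The last lists were the export and cleavage of procollagen and the elastic fibre partners of lysyl oxidases. Over all tested genes 8.21% rose and 6.83% fell with hypoxia, and 4.76% rose and 1.1% fell with IFN-γ. Of 9 tested export and cleavage genes 1 was called with hypoxia, Pcolce2, an enhancer of propeptide cleavage, which fell by 0.26 (SE 0.0877, edgeR adjusted p = 0.0276) and by 0.37 with IFN-γ. Its hypoxia call was kept in 3 of the 7 alternative fits, with adjusted p-values from 0.0454 to 0.559, and its IFN-γ call in 5. Adamts14, a procollagen protease, rose by 0.32 with IFN-γ (adjusted p = 0.00169), a call kept in 5 of the 7. Of 7 tested elastic fibre genes and partners, Fn1, the gene of fibronectin, rose by a fitted 0.31 with hypoxia (adjusted p = 5.49e-08), and Fbn1, the gene of fibrillin, by 0.62 with IFN-γ (adjusted p = 1.58e-16). The hypoxia change of Fn1 was uneven, 0.07 without IFN-γ and 0.55 with it, and its call was lost with DESeq2 and with IFN-γ left out of the model (adjusted p = 0.589).

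**Figure D4:**
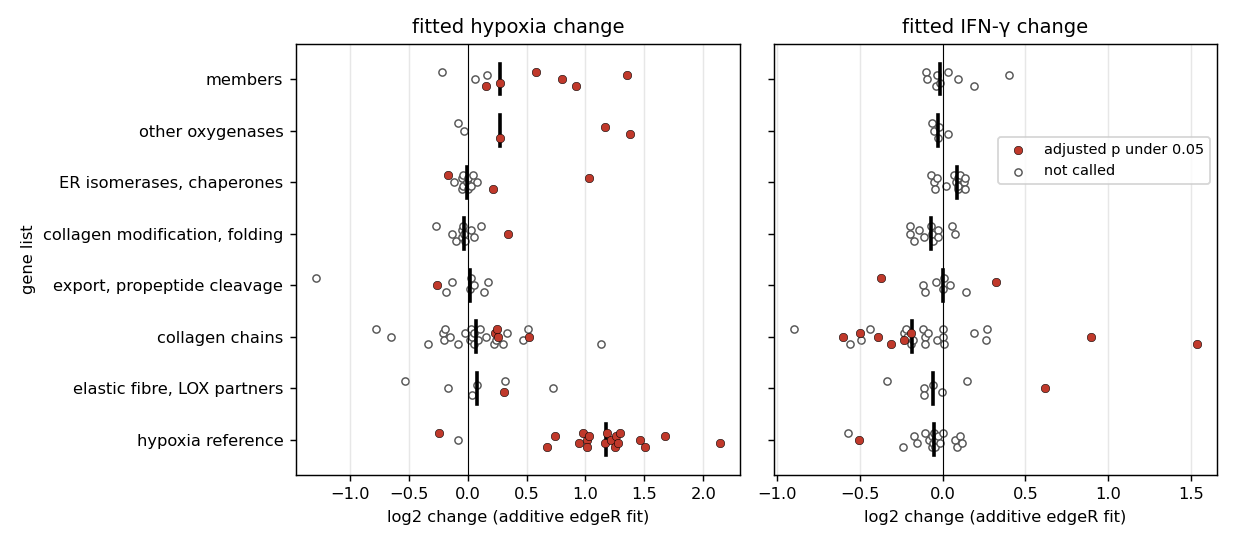
Fitted log2 changes (horizontal axes) with hypoxia, left, and IFN-γ, right, for the members and 7 gene lists; each point is 1 tested gene, filled red where edgeR's adjusted p is under 0.05, and the black bar is the list's median. The members' median of 0.28 with hypoxia lies level with that of the 5 tested genes of the chosen list labelled other oxygenases, also 0.28. It lies between that of the collagen chains at 0.07 and that of the hypoxia reference genes at 1.17. No member is red on the right.

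The hypoxia calls of P4ha1, P4ha2, P4hb and Plod2 were kept in all 7 alternative fits, with adjusted p-values of at most 0.00396, 0.00152, 0.0457 and 0.00642. The fitted changes themselves moved little between fits, for P4ha2 from 1.35 to 1.36 and for P4hb from 0.27 to 0.28. The size of the adjusted p depended far more on the fit. For P4ha2 the main edgeR fit gave 1.45e-116, smaller than all 7 alternatives. These ran from 1.62e-74 with DESeq2 to 0.00152 in edgeR with IFN-γ left out. EdgeR fits of the same additive model with other scaling or filters gave 1.07e-15 to 5.60e-12. The main adjusted p was also below all alternatives for P4ha1, Plod2 and P4hb. Counts of 10 or fewer were even in 64.0% to 66.3% of cases, as when both reads of a pair are counted, so the printed intervals may be too narrow. With halved counts the hypoxia intervals of the 6 called members still lay above 0 in both pairs, for Loxl2 from 0.04 to 1.03 without IFN-γ.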

How the data were processed

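Poly-A RNA of MC38 cells was sequenced from strand-specific dUTP libraries, paired-end, on the DNBSEQ platform. The authors deposited raw read counts per gene for the 4 libraries. They aligned reads with HISAT2, and the submitters' processing notes name featureCounts and mm10. Versions, annotation and strand setting were not given in the sources used here. The study's own differential test was not specified in detail and was not used.

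Genes were named through the RefSeq table by gene identifier (25275 of 27179). Counts were scaled by TMM, and genes were filtered at a minimum of 10 counts by filterByExpr. An additive model of oxygen and IFN-γ was fitted in edgeR 4.0.16 (R 4.3.3) with the quasi-likelihood test and Benjamini-Hochberg adjustment at 0.05. The fitting was also run on simulated counts without interaction, which cannot show how the lack of replicates affects the calls. Alternatives were DESeq2 1.42.0 with the same model, its size factors or total counts in place of TMM, no filter, at least 10 counts in every library, the other stimulus left out, a log2 change of at least 1 as well, 5 in place of 0.5 added counts for pair ratios, and halved counts, the last chosen after seeing the data. Pair intervals are exact conditional 95% intervals of 2 counts. Exon lengths are unions of annotated exons of GRCm38.p6.

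Members and lists were chosen with earlier results of these data known. Named genes were all members, Loxl1 and Loxl4, the up to 3 largest hypoxia and 2 largest IFN-γ changes per list among genes called with a mean of at least 50 counts, list members where a count was 5 or fewer, and the 5 nearest profiles to P4ha2. Genes named beyond this rule were chosen after their values were seen: Col1a1, Col3a1, Col4a5, Col6a1, Col6a2, Serpinh1, Colgalt1, P3h1, Crtap, Ppib, Egln2, Hif1an, the markers Cdh1, Cdx1, Cdx2, Cldn7, Epcam, Krt8, Krt18 and Vim, and those sharing sequence or position with a member.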

Additional observations from a re-analysis of the deposited data

Results flagged for a closer look

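P4ha3, a barely counted α subunit gene, had log2 changes of opposite sign in the 2 hypoxia pairs, 0.10 without IFN-γ and -0.53 with it, a difference of -0.62 on the log2 scale. Its IFN-γ changes were likewise opposite, 0.33 in normoxia and -0.29 in hypoxia, which is the same difference of -0.62 seen from the other side. All 4 counting intervals included 0, and the difference was not tested, since each condition had 1 library.

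Fn1, the fibronectin gene, had changes of opposite sign with IFN-γ under normoxia and hypoxia. Its counts were 17149, 17926, 13791 and 20142 in control normoxia, control hypoxia, IFN-γ normoxia and IFN-γ hypoxia. The IFN-γ change was -0.30 in normoxia and 0.18 in hypoxia, a difference of 0.48 on the log2 scale, and both counting intervals lay clear of 0. The difference between the oxygen conditions was not tested.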

How the results depend on the processing

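Each condition had 1 library, so no fit with a replicate block could be made and no library could be left out as a replicate. Oxygen states were compared within each IFN-γ state, and IFN-γ states within each oxygen state. The 6 members called with hypoxia became 1, P4ha2, when a log2 change of at least 1 was also required, and were 4 to 6 in the other fits. No fit called a member with IFN-γ. In the main fit 8.21% of all tested genes rose and 6.83% fell with hypoxia, and 4.76% rose and 1.1% fell with IFN-γ. The 57 tested genes of 5 lists (other lysyl oxidases, collagen chains, other modifying and folding genes, export and cleavage, elastic fibre) gave less stable counts. Those raised by hypoxia numbered 6, but 3 with DESeq2, 0 with IFN-γ left out of the model and 0 with a log2 change of at least 1. The 1 lowered by hypoxia, Pcolce2, was 0 under those 3 settings, without the filter and with at least 10 counts in every library. Those raised by IFN-γ numbered 4, but 2 with DESeq2, 2 with oxygen left out and 1 with a log2 change of at least 1. Those lowered by IFN-γ numbered 8, but 4, 1 and 0 under the same settings. P4ha3, at 38 to 55 counts, reversed its fitted direction in single pairs, to 0.10 for hypoxia without IFN-γ and to -0.29 for IFN-γ in hypoxia. All 80 pair changes and 20 differences recomputed with another pseudocount or scaling kept their direction and their side of 0. Counting depth limits what can be said of P4ha3, Lox, Loxl2 and Loxl3, and the absence of replicates limits every small change.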
